A study of Saccharomyces cerevisiae with 4 samples.

Results

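Tandem intergenic promoters are the gaps in which one budding yeast gene ends and the next gene on the same strand begins. The nucleosomes described here were chosen by position alone, as listed intervals whose midpoint lay in an intergenic stretch of 100 to 2000 bp between 2 neighbouring protein-coding open reading frames (ORFs) read in the same direction, with no other annotated gene inside. On the R64 genome build 2543 stretches met this rule, 1295 with both ORFs on the Watson strand and 1248 with both on the Crick strand, and their median length was 385 bp (range 100 to 1988 bp). They held 8077 of the 118231 nucleosomes listed in the series (6.83%), namely 3776 of 57674 in the table labelled nhp6ab and 4301 of 60557 in the table labelled WT. A further 53 tandem gaps were shorter than 100 bp and 44 were longer than 2000 bp, and these were not used.

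The series measured acetylation of lysine 16 of histone H4 (H4K16ac) by chromatin immunoprecipitation and sequencing in Saccharomyces cerevisiae. The 4 libraries are 2 replicates of cells labelled nhp6ab, named after NHP6A and NHP6B, and 2 replicates of wild-type (WT) cells. All cultures grew exponentially in rich glucose medium (YPD) and were cross-linked with formaldehyde, and sonicated chromatin was precipitated with a Santa Cruz antibody against acetylated H4K16. The labels do not give the structure of the altered alleles or the strain background. Each genotype has 1 table for both replicates, so no spread between replicates could be measured and no test between genotypes was made. The intervals given below are 95% exact binomial intervals, except for a difference of 2 log2 ratios, which has a 95% normal interval. Both kinds cover counting error and nothing else. How reads were filtered is not given, so PCR copies of one molecule may be among the counts.

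In a tandem stretch the terminator of the upstream gene and the promoter of the downstream gene share one piece of DNA, and a nucleosome-depleted region usually lies just upstream of the first, or +1, nucleosome of the downstream gene. Acetylation of H4K16, placed by the SAS-I and NuA4 acetyltransferases and removed by Sir2 near telomeres, weakens the contact of the H4 tail with neighbouring nucleosomes. Nhp6A and Nhp6B are small HMGB-type proteins that bend DNA and act with the histone chaperone FACT during transcription and nucleosome reassembly.

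Counts summed to 20293261 in nhp6ab and 26526939 in WT, with medians of 354 counts per listed nucleosome in nhp6ab and 442 in WT. Nucleosomes were listed within both targeted ORFs in both tables. NHP6A (YPR052C) had 260 counts in nhp6ab and 592 in WT, and NHP6B (YBR089C-A) had 564 in nhp6ab and 882 in WT. The counts therefore do not show that either ORF is missing from the library labelled nhp6ab, and nhp6ab is used here as the name on the label. ORF nucleosomes on chromosome XII stood higher in nhp6ab than those of the other chromosomes, with a log2 ratio of 0.46 for the mean count against values between 0.03 and 0.05 elsewhere, so results on that chromosome are named as such. No input library was used, so acetylation, nucleosome occupancy, copy number and recovery cannot be told apart in any value.

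Over all tandem stretches fewer nucleosomes were listed in nhp6ab than in WT, while those that were listed had close to the same scaled count. The number differed by −12.2% in tandem stretches, against −15.0% in convergent gaps, −8.60% in divergent gaps, −3.58% in ORFs and −4.76% over the genome. The total count of nhp6ab was 76.5% of that of WT. Numbers of listed nucleosomes and uncovered runs were not scaled for this depth. Depth and genotype cannot be told apart in them. Tandem nucleosomes held 1108961 counts in nhp6ab (5.46% of its table) and 1676974 in WT (6.32%), a log2 ratio of −0.21 (−0.21 to −0.21) after scaling to the table total. The mean was 294 ± 121 counts per nucleosome in nhp6ab and 390 ± 138 in WT (SD over nucleosomes), which scales to a log2 ratio of −0.02. Per covered base the ratio was 0.03. The sum thus followed the number of listed nucleosomes, and the other measures lay near 0. Over all listed nucleosomes of the genome, however, the ratio was 0.07 by mean and 0.10 per covered base. Tandem minus whole genome was −0.21 by sum, −0.09 by mean and −0.08 per covered base.

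Tandem nucleosomes also stood below those of ORFs in the nhp6ab-to-WT ratio by every measure taken. The difference in log2 ratio was −0.24 (−0.25 to −0.24) by sum, −0.11 by mean per nucleosome, −0.09 per covered base and −0.09 by the median over nucleosomes paired between the tables. Against convergent gaps, where genes end on both sides, the differences were −0.11, −0.16, −0.13 and −0.14 in the same order. Against divergent gaps, which hold a promoter on both sides, they were 0.02, 0.07, 0.07 and 0.08. By all 4 measures tandem stretches therefore lay between the divergent gaps, which were lower, and the convergent gaps, which were higher. In absolute level the median tandem nucleosome stood at 0.84 of its table's median in nhp6ab and 0.88 in WT, against 1.02 for ORF nucleosomes in both tables.

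**Figure D1:**
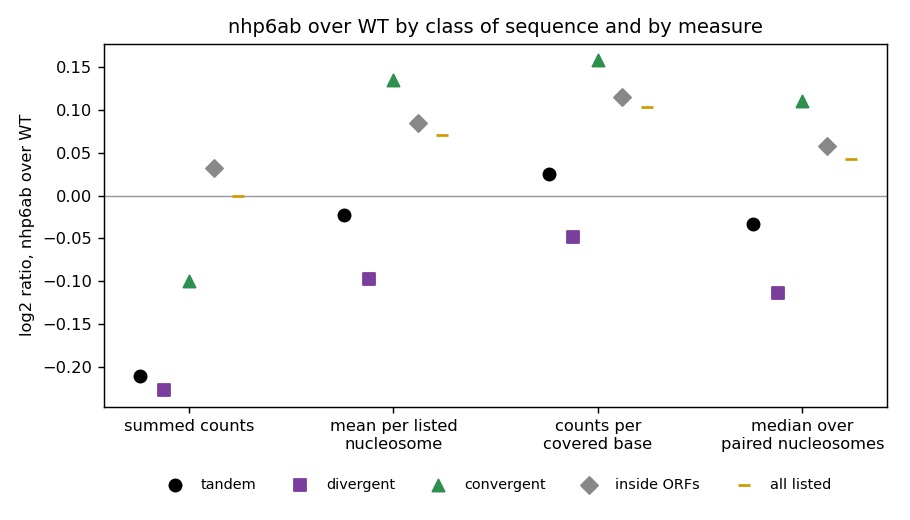
The plot gives the nhp6ab-to-WT log2 ratio of scaled counts (vertical axis) for tandem, divergent and convergent gaps, ORFs and all listed nucleosomes by each of 4 measures (horizontal axis), 1 marker per class. Tandem stretches lie at −0.21 by sum and at −0.02 by mean per nucleosome, below ORFs at 0.03 and 0.09.

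The order of tandem stretches and ORFs was the same on each chromosome. Tandem minus ORF was below 0 on 16 of 16 chromosomes by sum, between −0.32 and −0.06, and by mean, between −0.15 and −0.03. The tandem sum itself was below 0 on 15 of 16 chromosomes. The exception was chromosome XII, where it was 0.10 by sum and 0.34 by mean, against ORF values of 0.40 and 0.46 on that chromosome. Tandem minus divergent was below 0 on 5 of 16 chromosomes by sum, but on 1 of 16 by mean, where it lay between −0.00 and 0.16.

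The deficit of listed nucleosomes in nhp6ab was larger at both edges of the stretches than further inside. One edge is the downstream start codon, the place where the +1 nucleosome of many genes lies, and the other is the end of the upstream ORF. Within 100 bp upstream of the start 800 nucleosomes were listed in nhp6ab and 1002 in WT, a difference of −20.2%. At 100 to 200 bp the numbers were 639 in nhp6ab and 721 in WT (−11.4%), and further out the difference lay between −9.93% and −8.78%. Within 100 bp past the end of the upstream ORF 562 nucleosomes were listed in nhp6ab and 691 in WT (−18.7%). Beyond 100 bp from that end the difference lay between −12.9% and −8.93%. The mean count of the nucleosomes listed near the start did not follow the deficit. Its log2 ratio was 0.00 within 100 bp, 0.01 at 100 to 200 bp and −0.03 at 200 to 400 bp.

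Some nucleosomes lay on different sides of the start codon, or of the end of the upstream ORF, in the 2 tables. Among nucleosomes paired within 50 bp, 249 had their midpoint in a tandem stretch in WT and their nhp6ab partner inside a neighbouring ORF, and 110 had the reverse. Of the 249, 165 crossed into the downstream ORF and 84 into the upstream ORF. Per 100 stretches, 21.4 midpoints in nhp6ab and 27.1 in WT lay in the last 50 bp before the start, against 22.1 in nhp6ab and 20.4 in WT from 50 to 100 bp inside the ORF. Nucleosomes paired within the stretches themselves showed little net shift, with a median of 1 bp downstream in nhp6ab and a median absolute distance of 10 bp (quartiles 3 and 22 bp), close to the 11 bp of ORF pairs.

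**Figure D2:**
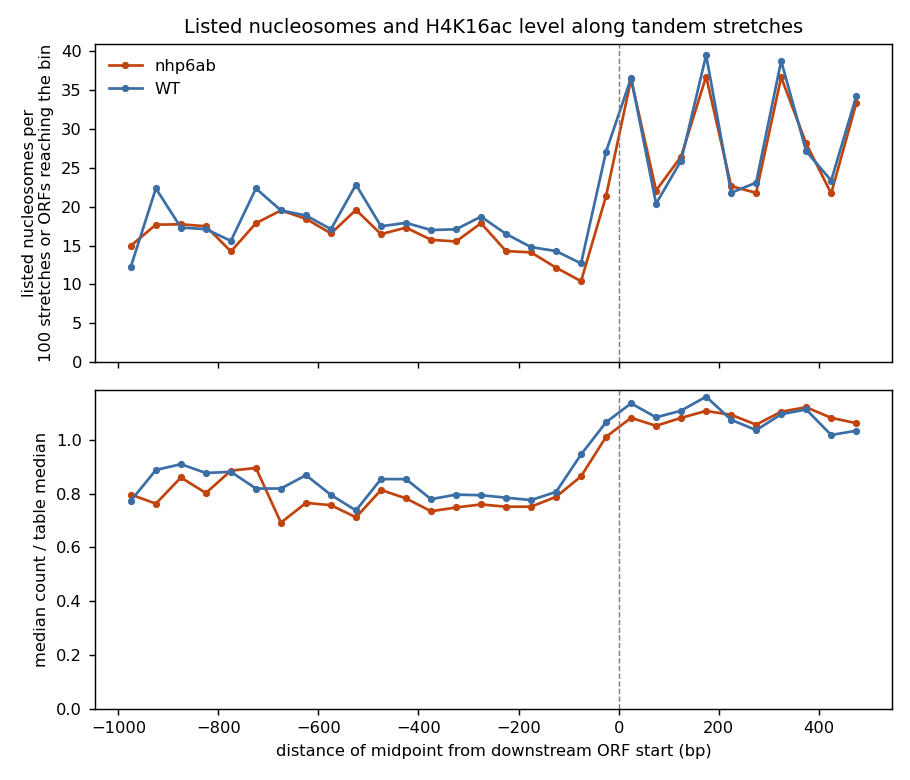
The plot shows, in 50 bp bins around the downstream start codon, the number of listed midpoints per 100 stretches (upper panel) and their median count over the table median (lower panel) for nhp6ab and WT. In the last bin before the start codon nhp6ab has 21.4 midpoints and WT 27.1, while in the first bin of the ORF the tables have 36.3 and 36.5.

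Uncovered DNA was longer in nhp6ab. The longest run without a listed nucleosome had a median of 171 bp in nhp6ab and 147 bp in WT. A run of at least 150 bp, about the length of DNA in a nucleosome, was present in 1470 stretches (57.8%) in nhp6ab and 1244 (48.9%) in WT. The run was longer in nhp6ab by at least 50 bp in 635 of the 2543 stretches and shorter by at least 50 bp in 195. Divergent gaps were similar, with 315 of 1350 lengthened (23.3%) and 123 shortened (9.11%), and with runs of at least 150 bp in 44.8% in nhp6ab and 35.5% in WT. In convergent gaps 212 of 1262 were lengthened (16.8%) and 68 shortened (5.39%). The differences between these classes were not tested. At HXT2, which encodes a high-affinity glucose transporter, the longest run was 1174 bp in nhp6ab and 384 bp in WT. The reverse was seen at QDR3, a multidrug transporter gene, with 19 bp in nhp6ab and 254 bp in WT. An unlisted place need not have had 0 reads, so these runs describe where the authors' procedure placed nucleosomes.

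Of the 2543 stretches 1723 had a nucleosome in both tables and at least 100 counts, 241 were listed in WT only, 83 in nhp6ab only and 496 in neither. Of the 1723, 147 (8.53%) were called lower in nhp6ab, with a summed ratio at least 2-fold below WT and an interval that excluded 0, where 8.29% of all intergenic stretches were. Called higher were 48 (2.79%), where 2.32% of all intergenic stretches were. Both shares were near the background. The median log2 ratio over the 1723 stretches was −0.10 (quartiles −0.45 and 0.15).

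These calls moved with the number of listed nucleosomes. Of the 147 lower stretches 138 had fewer nucleosomes in nhp6ab, and of the 48 higher stretches 45 had more. Among the 1057 stretches with equal numbers the median log2 ratio was −0.02. Of these 8 were called lower (0.977% of all such intergenic stretches were) and 3 higher (0.154%). By the mean count per nucleosome 27 of the 1723 were called lower (1.81% of all intergenic stretches were) and 3 higher (0.0939%). Where at least 2 nucleosomes were listed in each genotype, 35 were called lower (4.51% of all such intergenic stretches were) and 3 higher (0.356% of them were). At a smaller threshold, a log2 ratio of 0.58, 351 were called lower (19.6% of all intergenic stretches were) and 127 higher (6.88% of them were). The calls also depended on where a stretch was taken to end. With 100 bp added on each side 105 stretches were called lower (4.55% of all intergenic stretches were) and 42 higher (2.04%), and only 29 of the 147 lower and 4 of the 48 higher calls were among them. Sums for single stretches are therefore given below with their nucleosome numbers and with the ratio of the extended stretch.

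**Figure D3:**
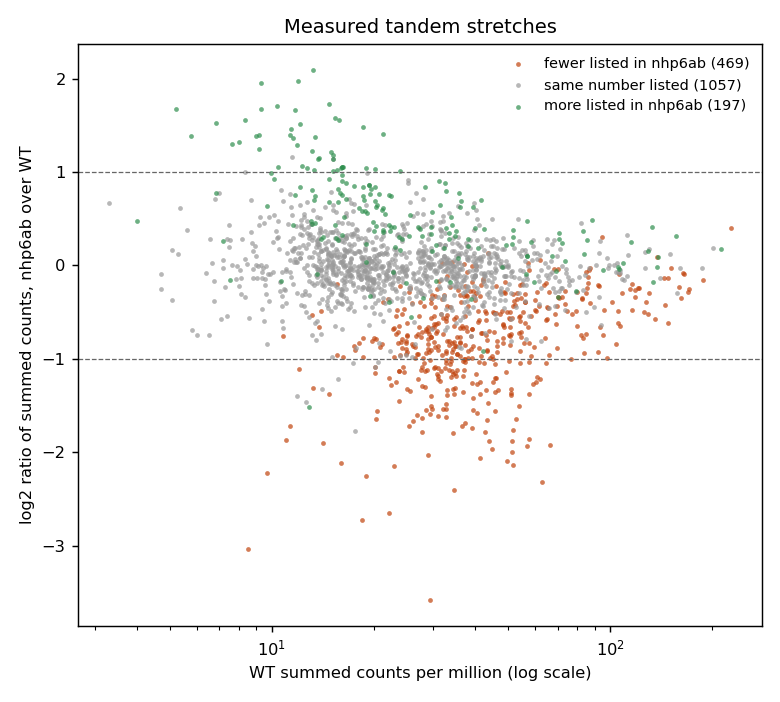
Each point is 1 of 1723 tandem stretches, with its scaled WT sum on a log axis (horizontal) and its nhp6ab-to-WT log2 ratio (vertical). Colours give whether fewer (469), as many (1057) or more (197) nucleosomes were listed in nhp6ab, dashed lines mark 2-fold, and nearly all points below the lower line are stretches with fewer.

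A comparison that does not rest on the number of nucleosomes is that of the 3160 nucleosomes paired between the tables inside tandem stretches. Their median log2 ratio was −0.03 (quartiles −0.25 and 0.17), against 0.06 for ORF pairs. At least 2-fold lower in nhp6ab were 85 pairs (2.69%), where 0.758% of all pairs in the genome were. Divergent gaps had a larger share, with 126 of 2419 pairs lower (5.21%) and a median of −0.11. At least 2-fold higher were 10 pairs (0.316%), where 0.321% of all pairs were. The lower pairs lay in 65 stretches, with 2 of the pairs on chromosome XII. Divided by the width of each interval, 64 pairs were lower (0.625% of all pairs were) and 6 higher (0.16%). Among the 1058 pairs in which neither interval overlapped another, 18 were lower (0.667% of all such pairs were) and 1 higher (0.146%).

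The lower pairs had low counts in both tables and lay deep in long promoters. Their median count was 55 in nhp6ab and 179 in WT, against 307 in nhp6ab and 402 in WT over all tandem pairs. In WT alone, which the call does not push down, 52 of the 85 (61.2%) had under 200 counts, against 8.32% of all tandem pairs. They lay a median of 435 bp upstream of the start codon (quartiles 293 and 632 bp), against 276 bp over all tandem pairs, and 2 of the 85 lay within 100 bp of it. Stretches of at least 500 bp held 77 of them (90.6%), against 60.2% of all tandem pairs. When pairs were divided into 4 classes of 790 by their mean level over both tables, the median log2 ratio of the lowest class was −0.22, against −0.01, −0.01 and 0.01 in the classes above it. A low nhp6ab count lowers both the level and the ratio, so the class and the ratio are not independent. ORF pairs of the same range of levels had a median of 0.02 and divergent pairs −0.34. Counting error is larger at these levels, and its part in the difference between classes was not tested.

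Several genes showed the pattern over successive nucleosomes. At GLN1 (YPR035W, glutamine synthetase; stretch on chromosome XVI, 640959 to 642207) the nucleosomes, in order towards the start codon, had 211, 39, 18, 13, 33 and 72 counts in nhp6ab, against 394, 317, 165, 132, 107, 140 and 174 in WT. Each of the last 5 nucleosomes was lower in nhp6ab than its WT partner, and the lowest counts lay in the middle of the stretch in both tables. The sums of 386 counts in nhp6ab and 1429 in WT gave a log2 ratio of −1.50 (−1.67 to −1.34), and −0.88 with 100 bp added on each side.

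UTH1 (YKR042W), a gene of the SUN family of cell wall proteins, had 18, 15, 25 and 34 counts in nhp6ab and 159, 117 and 67 in WT, so nhp6ab was lower although it had more listed nucleosomes. Its log2 ratio was −1.51 (−1.86 to −1.18), or −0.94 in the extended stretch. SPO24 (YPR036W-A), which encodes a small protein of sporulation, had 14, 21 and 58 counts in nhp6ab and 102, 79 and 153 in WT, a log2 ratio of −1.46 (−1.81 to −1.12) at equal numbers, or −0.74 in the extended stretch. Both are among the 5 stretches with the lowest mean WT counts where at least 2 nucleosomes were listed in WT. Another of these, that of ZEO1 (YOL109W), a plasma membrane protein gene, had 21 counts in nhp6ab against 86 and 140 in WT. Its ratio was −3.04 by sum and −2.15 in the extended stretch.

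The lowest single pair stood upstream of MNN4, which acts in mannosylphosphate transfer to cell wall mannans, with 24 counts in nhp6ab and 251 in WT (log2 ratio −3.00, −3.67 to −2.39). The midpoints of this pair lay 50 bp apart, the limit of pairing, and its intervals were 120 bp wide in nhp6ab and 160 bp in WT. Nearer the start of MNN4 131 and 258 counts were listed in nhp6ab, against 236 in WT for the partner of the first of them. WT nucleosomes of 340 and 130 counts in the MNN4 stretch had no partner in nhp6ab. At HXT2 the nucleosomes of the middle of a 1761 bp stretch, with 444 and 173 counts in WT, had no counterpart listed in nhp6ab, and the pair nearest the start had 227 counts in nhp6ab and 360 in WT. The HXT2 sum was 541 in nhp6ab and 1614 in WT, a log2 ratio of −1.19 (−1.33 to −1.05), and −1.24 in the extended stretch.

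**Figure D4:**
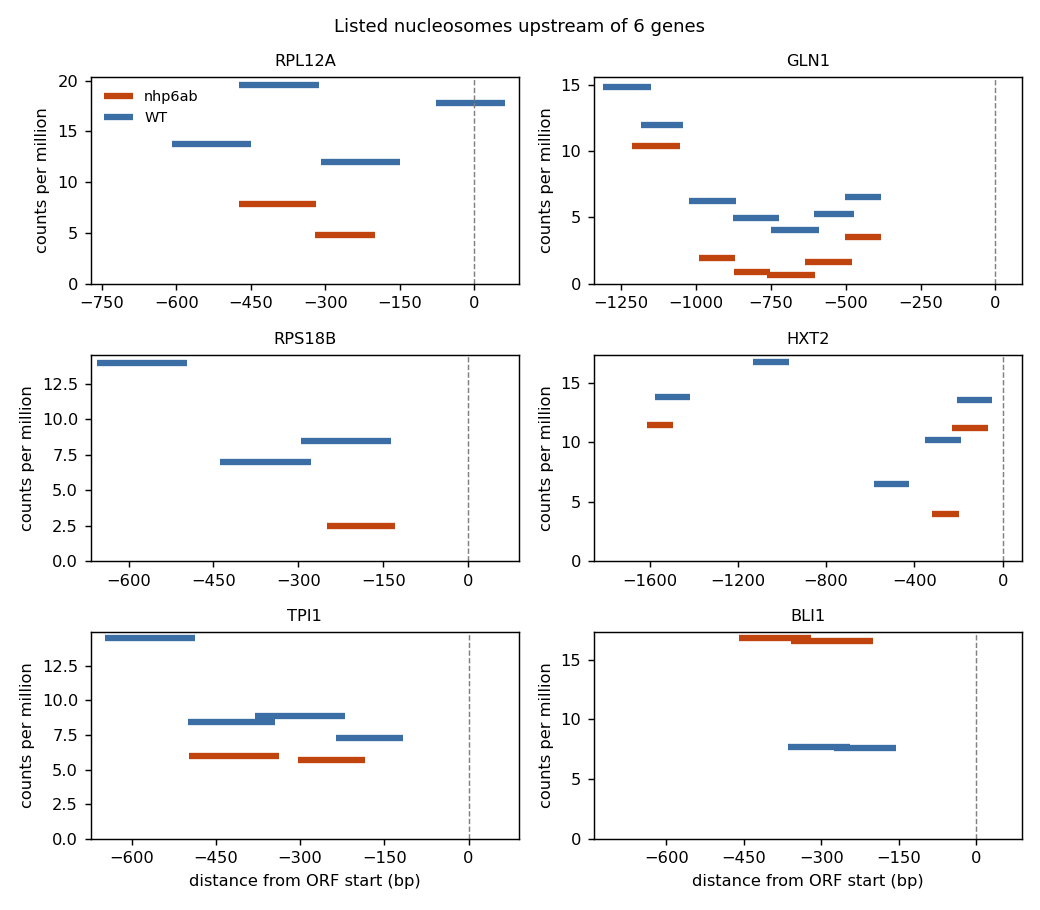
Listed nucleosomes of nhp6ab and WT are drawn as bars of their own width against distance from the downstream start codon (bp), with the scaled count on the vertical axis, for RPL12A, RPS18B, TPI1, GLN1, HXT2 and BLI1. The nhp6ab nucleosomes of GLN1 stand below their WT partners across the stretch, whereas both nhp6ab nucleosomes of BLI1 stand above those of WT.

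Among the 12 gene groups examined, promoters of cytosolic ribosomal protein genes had the lowest median over stretches of the log2 ratio by sum. By the median over paired nucleosomes, those of glycolysis and fermentation genes stood lower (−0.48 against −0.43). Cytosolic ribosomal protein genes are transcribed at high rates under the control of Rap1, Fhl1 and Ifh1. Of 137 such genes 56 lay downstream of a tandem stretch, 44 of these stretches were measured, 4 were listed in WT only, 1 in nhp6ab only and 7 in neither. Called lower in nhp6ab were 13 of the 44 (29.5%), against 8.53% of all measured tandem stretches, and 1 was called higher. Their median log2 ratio was −0.60 by sum and −0.46 by mean per nucleosome, against −0.10 and −0.02 over all tandem stretches. Both subunits contributed, with 8 of 25 large-subunit genes and 5 of 17 small-subunit genes called lower.

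The ribosomal protein result held on paired nucleosomes but with fewer calls of single stretches where the nucleosome numbers were equal. Their 79 pairs had a median log2 ratio of −0.43, and 67 were below 0. At least 2-fold lower were 14 (17.7%), against 2.69% of all tandem pairs. The 53 pairs whose widths differed by at most 10 bp had a median of −0.34, with 45 below 0. In the 21 ribosomal protein stretches with equal numbers the median was −0.28, 13 lay below 0 and 3 above 0 beyond counting error, and 0 were called lower. With 100 bp added on each side all 56 were measured, their median was −0.31 and 9 were called lower, of which 5 were also among the 13. Of all intergenic stretches extended in this way 4.55% were called lower. The 41 measured stretches in which a ribosomal protein gene was only the upstream gene had a median of −0.10. Of these 41, 7 were called lower (17.1%), against 8.53% of all measured tandem stretches.

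By paired nucleosomes the difference at ribosomal protein genes was largest in the middle of the promoter. At 100 to 200 bp upstream of the start codon the median nucleosome stood at 0.31 of the table median in nhp6ab and 0.51 in WT, and its 25 pairs had a median log2 ratio of −0.70. At 200 to 400 bp the levels were 0.20 in nhp6ab and 0.39 in WT, and the 23 pairs had a median of −0.71. Within 100 bp of the start the 11 pairs had a median of −0.09, and from 400 bp outwards the 20 pairs had −0.19. Other tandem promoters had pair medians between −0.03 and 0.01 at the same distances. By sum, ribosomal protein promoters were lower at every distance, with log2 ratios of −0.50, −0.45, −1.08 and −0.44 from the start outwards, against −0.32, −0.15, −0.16 and −0.17 for the others. Ribosomal protein pairs in the lowest class of levels had a median of −0.66 (47 pairs), against −0.19 for the other 743 tandem pairs of that class.

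RPL12A (YEL054C, a protein of the large subunit; stretch on chromosome V, 53219 to 53900) had 159 and 97 counts in nhp6ab, against 364, 520, 319 and 472 in WT. The nucleosome 393 bp upstream of the start in WT, with 520 counts, was paired with the nhp6ab nucleosome at 396 bp, with 159 counts. The stretch had a log2 ratio of −2.32 (−2.52 to −2.13). The extended stretch held the same nucleosomes and so had the same ratio. RPS18B (YML026C, a protein of the small subunit; chromosome XIII, 223829 to 224405) had a single nucleosome of 50 counts in nhp6ab, against 371, 185 and 225 in WT. Its log2 ratio of −3.58 (−4.02 to −3.17) was the lowest of all 1723 stretches, and it was −1.27 in the extended stretch. RPS24A (YER074W) had 50 and 94 counts in nhp6ab and 314, 173 and 280 in WT, with a ratio of −2.03, or −1.47 in the extended stretch. RPL36B had 68 and 140 counts in nhp6ab and 169, 121, 198 and 302 in WT, with a ratio of −1.54. Its extended stretch too held the same nucleosomes and had the same ratio. RPL16A had a ratio of −1.72 by its own limits but −0.19 in the extended stretch.

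Ribosomal protein genes did not all share the direction. RPS20 (850 counts in nhp6ab, 952 in WT) and RPL29 (359 in nhp6ab, 401 in WT), with equal nucleosome numbers in both tables, had log2 ratios of 0.22 and 0.23. The single stretch called higher, that of RPS1A, lies on chromosome XII and had 930 counts over 3 nucleosomes in nhp6ab and 407 over 1 in WT, a ratio of 1.58 by sum and −0.01 by mean. Without the 3 stretches on chromosome XII, 13 of 41 were called lower (31.7%) and the median was −0.72. Of all measured tandem stretches off that chromosome 8.93% were called lower.

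Glycolysis and fermentation genes and cell wall genes also had low paired nucleosomes. Differences between the groups were not tested. Over all tandem stretches 2.69% of pairs were at least 2-fold lower and 8.53% of measured stretches were called lower. The 20 pairs of glycolytic promoters had a median log2 ratio of −0.48 with 5 at least 2-fold lower (25%). Of their 9 measured stretches 3 were called lower (33.3%). TPI1 (YDR050C, triose phosphate isomerase) had 121 and 116 counts in nhp6ab and 384, 223, 235 and 193 in WT. Its ratio of −1.74 was −0.19 in the extended stretch. The 35 pairs of cell wall promoters had a median of −0.43 with 5 at least 2-fold lower (14.3%). Per base of each interval the median was −0.28, against −0.43 for glycolytic and −0.40 for ribosomal protein pairs. Of 11 measured cell wall stretches 1 was called lower (9.09%), near the share of all tandem stretches. That stretch was TIR3, a cell wall mannoprotein gene, with 132 counts in nhp6ab and 917 in WT (−2.41, and −0.90 in the extended stretch). All 3 groups stood low in both tables. The median nucleosome stood at 0.36 of the table median in nhp6ab and 0.50 in WT for glycolytic genes, at 0.43 in nhp6ab and 0.64 in WT for cell wall genes and at 0.40 in nhp6ab and 0.57 in WT for ribosomal protein genes, against 0.84 in nhp6ab and 0.88 in WT for all tandem nucleosomes. How far low level and gene group each go with the ratio was not tested.

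Most other groups had pair medians near 0. These were −0.01 for mitochondrial ribosomal proteins (19 pairs), −0.01 for heat shock and stress genes (28), −0.06 for ribosome biogenesis (24), −0.08 for amino acid biosynthesis (45), −0.03 for the proteasome (15), 0.01 for ergosterol synthesis (21), −0.07 for chromatin proteins (8) and −0.14 for inducible genes (36). Mitochondrial ribosomal protein genes share a product class but not the regulators of the cytosolic ones. They had 1 of 12 measured stretches called lower (8.33%, against 8.53% of all measured tandem stretches) and 0 called higher. By stretches rather than pairs, chromatin proteins had a median of −0.51 by sum and −0.33 by mean, with 2 of 6 measured stretches called lower (33.3%). Translation factor promoters were often without a nucleosome, with 4 of 12 stretches measured, 4 listed in WT only and 4 in neither.

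Single members of these groups had low sums and fewer listed nucleosomes in nhp6ab. ERG9, the squalene synthase gene, had 1 nucleosome of 238 counts in nhp6ab against 539, 325 and 509 counts in WT, a ratio of −2.14 that became −0.10 in the extended stretch. POB3, which encodes a subunit of FACT, had 132 counts in nhp6ab against 241 and 298 in WT, a ratio of −1.64 that became −0.12. ARG3, an arginine synthesis gene, had 72 counts in nhp6ab and 590 in WT, with −2.65 by its own limits and −0.71 in the extended stretch. RPN2, a proteasome gene, had 302 in nhp6ab and 1503 in WT, with −1.93 and −0.83. Each of the 4 had a less extreme ratio once the neighbouring 100 bp were included. By mean per nucleosome the ratios were −0.56 at ERG9, −0.64 at POB3, −1.06 at ARG3 and −0.34 at RPN2, so all 4 stayed below 0 and ARG3 stayed beyond 2-fold.

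**Figure D5:**
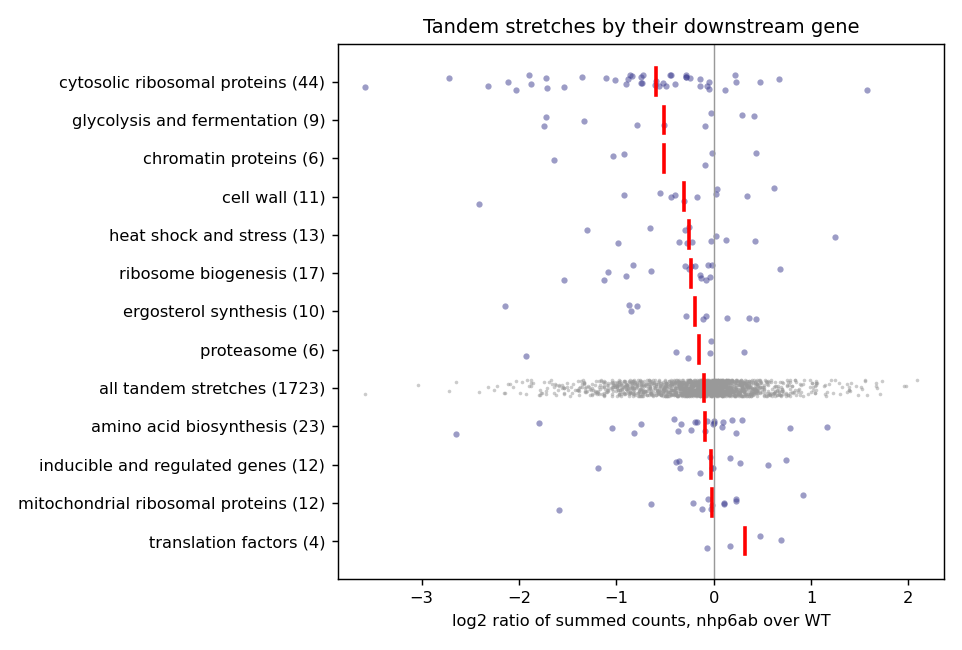
The plot shows the log2 ratios of measured tandem stretches by group of the downstream gene, 1 point per stretch, with a red bar at each median and the number measured in brackets. Ribosomal protein stretches have a median of −0.60 and all tandem stretches −0.10.

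At the other end of the range stood genes of several functions. HIS4 (YCL030C, a histidine synthesis gene; chromosome III, 68334 to 68598) had 1 nucleosome in each table, with 520 counts in nhp6ab and 304 in WT, a log2 ratio of 1.16 (0.95 to 1.37) and 1.49 in the extended stretch. HIS1, which encodes the first enzyme of the same pathway, had 244, 257, 253 and 174 counts in nhp6ab and 195, 153, 187 and 171 in WT. Its second nucleosome was at least 2-fold higher, with a ratio of 1.13, and its extended stretch stood at 0.38. The amino acid biosynthesis group as a whole had a median of −0.09 over 23 stretches. Of these 1 was called higher (4.35%) and 3 lower (13.0%), against 2.79% and 8.53% of all measured tandem stretches.

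BLI1 (YKL061W, a BLOC-1 subunit; chromosome XI, 325121 to 325770) had 342 and 337 counts in nhp6ab and 203 and 201 in WT, a log2 ratio of 1.14 (0.96 to 1.32). The WT intervals were 120 bp wide and those of nhp6ab 140 and 160 bp, and in the extended stretch the ratio was 0.56. DED1, the gene of a translation initiation helicase, had 354 counts in nhp6ab and 286 in WT and a ratio of 0.69, or 0.91 in the extended stretch, below the 2-fold limit. Of the 10 higher pairs 4 lay on chromosome XII, among them CTS1, a chitinase gene, with 378 counts in nhp6ab and 189 in WT (1.39), and RPS22B with 151 in nhp6ab and 55 in WT (1.84). In 8 of the 10 the WT interval was the narrower one, as in 546 of all 3160 tandem pairs. Among the 85 lower pairs the WT interval was the wider one in 56, as in 1214 of all tandem pairs, and 59 of the 85 were at least 2-fold lower per base too.

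Among stretches with at least 2 nucleosomes in WT, those of APA1, HBN1, SPB1, FRM2 and MRC1 had the 5 highest mean counts in WT, and all lay on the left arm of chromosome III. At APA1 the nucleosomes had 818, 711 and 1081 counts in nhp6ab and 1294, 1182 and 1698 in WT. The 16 tandem stretches between 15 and 85 kb of that chromosome had a level of 1.86 times the table median in nhp6ab and 1.63 in WT, against 0.83 in nhp6ab and 0.88 in WT elsewhere. ORF nucleosomes of the segment stood at 2.12 in nhp6ab and 2.11 in WT. The segment as a whole thus stood high in both tables, with its tandem promoters below its ORFs. HIS4 lies in this segment.

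By length of the stretch the ratios by mean differed little, while the sum and the number of listed nucleosomes did differ. By mean per nucleosome the log2 ratio was −0.02 in stretches under 250 bp, 0.00 from 250 to 500 bp, −0.06 from 500 to 1000 bp and −0.01 above. By sum it was −0.27, −0.24, −0.23 and −0.13 in the same order. The listed number differed by −16.2%, −15.3%, −11.2% and −7.76%. Within 20 kb of chromosome ends tandem nucleosomes had a ratio of 0.15 by mean (179 in nhp6ab, 195 in WT), against −0.03 further inside. The ratios near the ends were thus the higher ones, by more than the difference between tandem stretches and ORFs. ORF values near the ends are not given here. The median level within 20 kb was 0.93 of the table median in nhp6ab and 0.86 in WT. Further inside it was 0.83 in nhp6ab and 0.88 in WT. The genes on either side of the lower stretches did not share their ratio. The first 500 bp of the downstream ORF had a median log2 ratio of 0.10 for the 147 lower stretches and 0.04 for all measured ones, and the last 500 bp of the upstream ORF had −0.06 for the lower stretches and −0.02 for all.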

How the data were processed

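Per the file headers, the authors deposited a chromosome, start, end and read count for each listed nucleosome, in 1 table per genotype. These whole-number counts, with different totals, were taken as not normalized. FastQC, Bowtie and build R64 are named per the submitters' processing notes. How nucleosomes were called, reads filtered and replicates combined is not given in the sources used here. At the median count the counting error was 5.31% in nhp6ab and 4.76% in WT. Of tandem intervals, 50.7% in nhp6ab and 54.1% in WT overlapped another, so a read may count more than once and intervals are then too narrow. The full 160 bp width was listed for 43.4% in nhp6ab and 61.4% in WT.

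Gene positions came from a RefSeq R64 table of 6431 genes, 6002 protein-coding, with strands read from systematic names. Counts were scaled to the table total, and log2 ratios of nhp6ab to WT carry exact conditional binomial intervals. A difference between log2 ratios carries a normal interval of counting error. Measured stretches had at least 100 counts in all and more than 0 in each table. A call needed a log2 ratio of 1 or more in either direction and an interval excluding 0. Nucleosomes were paired one to one by nearest midpoint within 50 bp, with at least 10 counts over both. Named stretches were the 10 highest and 10 lowest ratios with at least 2 nucleosomes in each table, the 5 highest and 5 lowest WT means with at least 2 nucleosomes in WT, the 5 highest and 5 lowest pairs, the extremes of each gene list and the 3 largest changes of uncovered runs in each direction. Not all of them are described. The ribosomal protein genes RPS20 and RPL29, and NHP6A and NHP6B, were named after their values were seen. Members and lists were chosen with earlier results of these data known, and 2 list patterns were corrected after values were seen to leave out RPP1 and MRP8. Python 3.11.15, numpy 2.4.6, pandas 2.3.3 and scipy 1.17.1 were used, and the scripts were tested on simulated data. No promoter sequence was used here.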

Additional observations from a re-analysis of the deposited data

How the results depend on the processing

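No paired analysis was possible because each genotype has a single table, and leaving out a replicate could not be done either. The summed tandem ratio of −0.21 was −0.17 with totals without chromosome XII, −0.25 scaled to the median pair, −0.022 by mean per nucleosome, −0.13 with whole intervals inside, −0.24 without chromosome XII, −0.22 without 20 kb at the ends, −0.10 without overlapping intervals, −0.23 for stretches of 200 to 1000 bp and −0.22 without the 20 largest stretches. Its sign reversed, to 0.025, per covered base, a measure by which the whole genome stood at 0.10. Stretches called lower were 27 by mean, 351 at a log2 of 0.58, 35 with at least 2 nucleosomes in each table and 8 at equal numbers. Called higher were 3, 127, 3 and 3 in the same order. The pair median was −0.029 within 25 bp, −0.051 without chromosome XII, −0.013 for pairs without overlap and −0.076 scaled to the median pair. Per base its sign reversed, to 0.012, where all pairs of the genome had a median of 0.076. Higher pairs were 6 without chromosome XII, 1 without overlap and 6 per base, and lower pairs were 18 without overlap. Tandem minus divergent was 0.075 by mean and 0.080 by pairs and reversed to −0.014 for 200 to 1000 bp, and tandem minus ORF was −0.11 by mean and −0.090 by pairs. By mean the position ratios were 0.0034, 0.012, −0.026, −0.063 and 0.070 from the start outwards, against sums of −0.32, −0.16, −0.18, −0.20 and −0.07, so the first, second and last changed sign. Summed group ratios became, by mean, −0.28 for cytosolic ribosomal proteins (−0.60 by sum, −0.74 without chromosome XII), 0.025 for mitochondrial ones (−0.04), −0.38 for glycolysis (−0.58), −0.17 for translation factors (−0.84), −0.065 for amino acids (−0.28), −0.092 for ribosome biogenesis (−0.60), 0.18 for the proteasome (−0.03), −0.068 for ergosterol (−0.34) and −0.35 for chromatin proteins (−0.76), and reversed to 0.011 for heat shock (−0.31). The mean leaves out the number of nucleosomes by construction, and by mean the whole genome stood at 0.070. Reversals by mean or per base are thus changes of sign and not of order against the genome. For the other settings the cause was not tested. The extension by 100 bp, the ribosomal protein ratio and stretch calls without chromosome XII, and the ratio per base of a pair, were chosen after seeing the data. The planned search for sequence words was not run.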

Other observations

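Stretches listed in a single table mostly held a single nucleosome. Of the 241 listed in WT only, 215 had 1, and their counts had a median of 411 (range 130 to 1250). Of the 83 listed in nhp6ab only, 81 had 1, with a median of 281 counts (57 to 595). Nucleosomes without a partner within 50 bp numbered 506 in nhp6ab, with a median of 227 counts, and 892 in WT, with a median of 336, against medians of 308 in nhp6ab and 405 in WT for paired ones.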
